A study of Mus musculus with 14 samples.

Results

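Transcripts of the immunoproteasome subunits Psmb8, Psmb9 and Psmb10, of the peptide transporters Tap1 and Tap2, and of the constitutive subunit Psmb5 were compared between EZH2 WT and EZH2 LOF mouse pontine gliomas. The 6 genes were chosen by their symbols, and all 6 were found among the 3533 genes of the loss-of-function table. None of them is among the 294 genes of the gain-of-function table, so only the loss-of-function experiment is described.

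The series holds RNA-seq of 14 tumors from mice carrying Nestin-Tv-a, a transgene that puts the receptor for avian RCAS viruses on Nestin-expressing progenitors. In the 7 tumors compared here, the EZH2 WT group (n = 3, replicates 1 to 3) has the genotype Nestin-Tv-a, p53f/f and Ezh2wt, and the EZH2 LOF group (n = 4, replicates 13 to 16) has Nestin-Tv-a, p53f/f and Ezh2f/f. By the study's methods, both groups received RCAS-PDGF-B and RCAS-Cre, and mice were killed when they showed signs of a tumor. The study describes the tumors of both groups as driven by PDGF-B with loss of p53. The strain is labelled C57BL/6, and no age is given in the labels or methods. By its stock name in the study's methods, the floxed Ezh2 line came from a mixed background. Cre acts in virus-infected cells only, while the RNA comes from whole frozen tumor, which also holds host cells with intact Ezh2. The study describes the Ezh2 deletion as incomplete, so EZH2 LOF names a group and not the absence of the protein. It also reports less EZH2 staining and a nearly complete loss of H3K27me3 staining in Ezh2-deleted tumors. Those stained tumors were made with an shRNA against p53. The groups come from different parent lines, and line and Ezh2 genotype cannot be told apart. Nothing in the labels says more of how tumors relate to animals, so the spread that p-values rest on is that of these 7 samples and may be partly technical.

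The immunoproteasome is a form of the proteasome in which 3 catalytic subunits are exchanged for inducible ones: Psmb9 (LMP2) takes the place of Psmb6, Psmb10 (MECL-1) that of Psmb7, and Psmb8 (LMP7) that of Psmb5. It is abundant in immune cells and is induced elsewhere by interferon-gamma, and its peptides are favoured for display. Tap1 and Tap2 form the pump that moves such peptides into the endoplasmic reticulum, where they are loaded onto MHC class I molecules. Healthy neurons and glia show little of this machinery. EZH2 is the catalytic subunit of the Polycomb repressive complex PRC2, which methylates histone H3 at repressed genes.

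Of the 6 genes, 4 lie side by side on mouse chromosome 17, inside the class II region of the major histocompatibility complex (GRCm38 coordinates from RefSeq). Psmb9 (ENSMUSG00000096727) occupies chr17:34182030-34187330 on the minus strand, followed by Tap1 (ENSMUSG00000037321) at chr17:34187556-34197225, Psmb8 (ENSMUSG00000024338) at chr17:34198195-34201454 and Tap2 (ENSMUSG00000024339) at chr17:34204479-34216321, all 3 on the plus strand. Psmb10 (ENSMUSG00000031897) lies alone at chr8:105935728-105938392 and Psmb5 (ENSMUSG00000022193) at chr14:54614120-54617995, both on the minus strand. Psmb9 and Tap1 point away from each other, and 225 bases separate their start sites.

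The 250 bases before the start were available from RefSeq (GRCm38.p6) for 5 of the 6 genes. Those of Psmb9 and Psmb8 are shown as 2 starts of the cluster whose genes rose, and that of Psmb5 as the start of the subunit that Psmb8 replaces. Capitals mark matches, on either strand, to the interferon-gamma activated site TTCNNNGAA (GAS), the GC box GGGCGG or the CCAAT box. Each is written from 5′ to 3′ in the direction of its gene, from chr17:34187331-34187580 (Psmb9, minus strand), chr17:34197945-34198194 (Psmb8, plus strand) and chr14:54617996-54618245 (Psmb5, minus strand).
Psmb9: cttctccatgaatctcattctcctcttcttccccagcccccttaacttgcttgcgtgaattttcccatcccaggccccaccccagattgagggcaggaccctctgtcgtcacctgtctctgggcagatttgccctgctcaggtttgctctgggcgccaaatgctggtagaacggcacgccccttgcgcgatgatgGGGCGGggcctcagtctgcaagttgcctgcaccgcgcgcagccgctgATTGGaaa
Psmb8: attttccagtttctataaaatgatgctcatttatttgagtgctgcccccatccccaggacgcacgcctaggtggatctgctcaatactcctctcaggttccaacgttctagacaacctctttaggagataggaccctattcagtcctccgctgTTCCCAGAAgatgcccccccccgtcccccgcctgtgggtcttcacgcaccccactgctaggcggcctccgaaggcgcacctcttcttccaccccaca
Psmb5: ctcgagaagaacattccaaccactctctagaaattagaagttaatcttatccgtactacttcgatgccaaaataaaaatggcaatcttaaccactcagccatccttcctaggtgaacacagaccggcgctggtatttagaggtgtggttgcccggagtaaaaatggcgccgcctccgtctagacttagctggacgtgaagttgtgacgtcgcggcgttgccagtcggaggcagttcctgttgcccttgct

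The Psmb9 window holds 1 GC box at position -55 and 1 CCAAT box, read on the other strand, at -8, counted from the start. It shares 225 of its bases with the Tap1 window, which reads the same letters in reverse complement, so both matches also stand before Tap1, at -176 and -222. Psmb8 holds 1 GAS match, TTCCCAGAA, at -97. The core of the interferon-stimulated response element (ISRE) and the NF-kappaB motif match in none of the 5 windows. Those of Psmb10 and Psmb5 also hold no GAS, GC box or CCAAT box. The short core GAAA of sites for interferon regulatory factors, not put in capitals because 86.4% of all windows hold it, matches in each of the 5 windows, 2 times before Psmb8, Psmb9 and Tap1 and 1 time before Psmb10 and Psmb5. Among all 32851 promoter windows of this length, 7.02% hold a GAS match, 32.7% a GC box, 33.8% a CCAAT box, 2.98% the ISRE core and 7.25% the NF-kappaB motif. CpG pairs number 12 before Psmb9, 10 before Psmb8, 14 before Tap1, 3 before Psmb10 and 15 before Psmb5, against a median of 6 over all windows. These matches describe letters only.

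The deposited table is limited to genes past an FDR of 0.05 in the authors' comparison, so a listed gene had already differed between these groups in their test, and the calls below describe size and spread rather than give independent evidence. Values are normalized counts, that is reads per gene after division by the size factor of the library. Reads recovered in the listed genes ranged from 2763245 to 3685186 in EZH2 WT and from 281847 to 1842891 in EZH2 LOF, with replicates 13 and 14 the shallowest. Ezh2 and Trp53 are not in the table, so their own levels were not analysed here. Of 8 glioma and oligodendrocyte precursor markers, Pdgfra and Olig2 are listed. Olig2 was at 1808 to 2727 normalized counts in EZH2 WT and 1321 to 1461 in EZH2 LOF, and Pdgfra at 15425 to 25817 and 9731 to 12038.

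Immunoproteasome and transporter transcripts were higher in EZH2 LOF tumors, and Psmb5 did not pass the test. By limma on log2(normalized count + 1), with Benjamini-Hochberg adjustment over the 13391 genes tested by the authors and a call at an adjusted p under 0.05, 5 of the 6 genes rose and 0 fell. In the whole table, 31.2% of genes were called higher and 29.7% lower. The median log2 difference (EZH2 LOF minus EZH2 WT) was 1.87 over the 6 genes and -0.33 over all 3533. For 5 of the 6, no EZH2 LOF tumor lay as low as any EZH2 WT tumor, which held, with EZH2 LOF higher, for 41.9% of the table.

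Psmb9, whose product LMP2 changes the cleavage preference of the proteasome, had the largest difference of the 6. It was at 23.4, 15.5 and 32.1 normalized counts in EZH2 WT replicates 1, 2 and 3, and at 357, 146, 371 and 372 in EZH2 LOF replicates 13, 14, 15 and 16. All EZH2 LOF tumors were above all EZH2 WT tumors, and the lowest of them, replicate 14, was 4.54 times the highest EZH2 WT tumor. The means were 23.7 ± 8.27 (SD, n = 3) and 311 ± 111 (SD, n = 4), a 13.2-fold difference. On the log2 scale this was 3.62 (SE 0.36, 95% interval 2.81 to 4.43, adjusted p = 0.00110, limma), the 18th highest difference of the table.

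Psmb8 encodes LMP7, which carries the chymotrypsin-like activity of the immunoproteasome. Its values were 130, 102 and 196 normalized counts in EZH2 WT and 797, 302, 665 and 722 in EZH2 LOF, in the same order of replicates. The groups did not overlap, replicate 14 again being the lowest EZH2 LOF tumor, at 1.54 times the highest EZH2 WT tumor. The mean was 4.36-fold higher, at 621 ± 219.8 (SD, n = 4) against 142 ± 48.1 (SD, n = 3), with a log2 difference of 2.08 (SE 0.33, adjusted p = 0.00620, limma).

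Psmb10, the inducible partner outside the chromosome 17 cluster, moved least of the 5. It was even in EZH2 WT, at 121, 119 and 137 normalized counts, and uneven in EZH2 LOF, at 445, 199, 205 and 260.0. The groups did not overlap, but replicate 13 stood well above the other 3 EZH2 LOF tumors. The coefficient of variation was 7.58% in EZH2 WT and 41.5% in EZH2 LOF. The mean rose 2.20-fold, from 126 ± 9.53 (SD, n = 3) to 277 ± 115 (SD, n = 4), a log2 difference of 1.06 (SE 0.26, adjusted p = 0.0251, limma). The call was lost without EZH2 WT replicate 1, EZH2 WT replicate 2 or EZH2 LOF replicate 16, with adjusted p of 0.0542, 0.0828 and 0.0629 by limma. Without EZH2 LOF replicates 13 and 14, the shallowest libraries, the adjusted p was 0.0673 and the log2 difference 0.87.

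Tap1, which with Tap2 forms the transport channel and binds ATP, was at 119, 86.5 and 179 normalized counts in EZH2 WT and at 1132, 479.6, 848 and 902 in EZH2 LOF. No values overlapped. Its mean was 6.57-fold higher in EZH2 LOF, at 840.4 ± 270.2 (SD, n = 4) against 128 ± 46.7 (SD, n = 3), and its log2 difference was 2.70 (SE 0.30, adjusted p = 0.00156, limma). Tap2 was at 161, 72.4 and 133 normalized counts in EZH2 WT and at 477, 276, 320.0 and 433 in EZH2 LOF. These values did not overlap either, and the mean was 3.08-fold higher, at 376 ± 93.9 (SD, n = 4) against 122 ± 45.5 (SD, n = 3). The log2 difference of Tap2 was 1.66 (SE 0.28, adjusted p = 0.00767, limma), and without EZH2 LOF replicates 13 and 14 together it was 1.67 with an adjusted p of 0.0629.

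Psmb5, the constitutive subunit that LMP7 replaces, was at 26.7, 33.4 and 40.9 normalized counts in EZH2 WT and at 36.7, 66.4, 58.9 and 51.3 in EZH2 LOF. The groups overlapped, since EZH2 LOF replicate 13 lay below EZH2 WT replicate 3. The means were 33.7 ± 7.08 (SD, n = 3) and 53.3 ± 12.7 (SD, n = 4), a ratio of 1.58. Its log2 difference of 0.64 (SE 0.28, 95% interval 0.02 to 1.25) had an adjusted p of 0.171 by limma. By edgeR and DESeq2 on the recovered reads it was 0.0931 and 0.0863. As a listed gene, Psmb5 had passed the authors' comparison. Adjusted over the listed genes only, which counts fewer tests, it had 0.0450 by limma. Few reads lie behind these values: 48, 88 and 79 in EZH2 WT and 8, 31, 80 and 43 in EZH2 LOF. The 8 reads of replicate 13 give an exact Poisson 95% interval of 15.8 to 72.2 normalized counts, which covers counting error only. Of the 50-base words in Psmb5 transcripts, 54.1% also occur in its pseudogene Psmb5-ps, in Gm3375 or in Mir686, so reads of the sequenced length may be shared and the level of Psmb5 is uncertain.

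**Figure D1:**
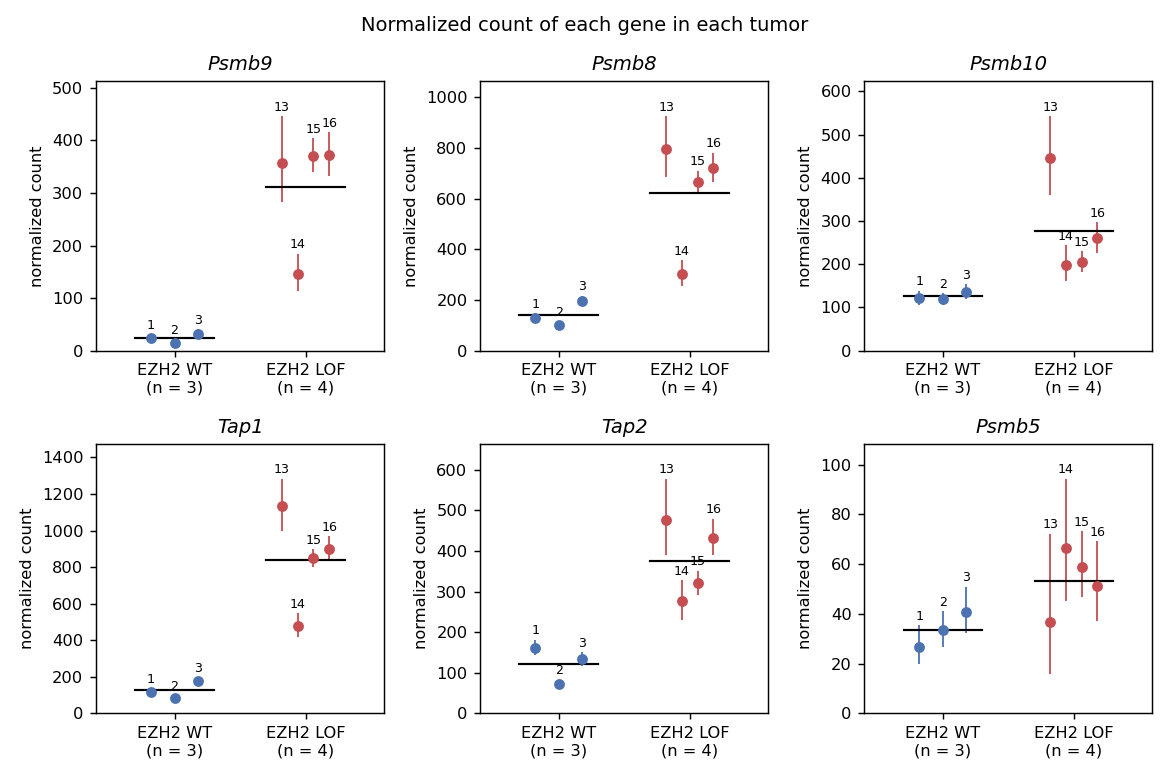
Normalized counts (vertical axes, from 0) of the 6 genes in each tumor, with EZH2 WT in blue and EZH2 LOF in red. Points are tumors with their replicate number, vertical lines are exact Poisson 95% intervals from the recovered reads (counting error only), and black bars are group means. For Psmb9, Psmb8, Psmb10, Tap1 and Tap2 every red point lies above every blue point, and for Psmb5 the colours overlap.

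Sharing of reads was small for the other genes. Psmb9 and Psmb10 share no 50-base word with another gene, and Psmb8, Tap1 and Tap2 share 0.227%, 0.442% and 0.655% of theirs, the last 2 with each other. Exons of Psmb9 and Tap1 overlap by 212 bases on opposite strands in GENCODE M21, and antisense or long noncoding models overlap 498 exon bases of Psmb8 (Gm20496) and 165 and 533 of Tap2 (Gm20496 and Gm15821). The libraries were stranded, but no source used here gives the strand setting of the counting, so a part of these reads may belong to the partner gene.

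Levels between genes were compared per kilobase of exon, after joining the exons of all annotated transcripts. The joined length was 3381 bases for Psmb8, more than its RefSeq span of 3260, and 3660 for Psmb9, with a span of 5301. For Psmb5 it was 899, with a span of 3876. The order of genes below depends on these lengths, and other transcript lengths were not tried. In EZH2 WT the order of mean levels was Psmb10 at 73.7 ± 5.59, Psmb8 at 42.1 ± 14.2, Psmb5 at 37.4 ± 7.88, Tap2 at 32.3 ± 12.03, Tap1 at 23.4 ± 8.53 and Psmb9 at 6.47 ± 2.26 normalized counts per kilobase (SD, n = 3). Psmb10 was above the others and Psmb9 below them in each of the 3 tumors, whereas neighbours between these ends overlapped. In EZH2 LOF the order was Psmb8 at 184 ± 65.0, Psmb10 at 162 ± 67.5, Tap1 at 153 ± 49.3, Tap2 at 99.6 ± 24.8, Psmb9 at 85.1 ± 30.3 and Psmb5 at 59.3 ± 14.1 (SD, n = 4). Neighbours in this order overlapped between tumors throughout. Psmb9 was the lowest of the 6 in EZH2 WT and ranked next to Tap2 in EZH2 LOF.

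Ratios within a tumor, which do not depend on the size factor, showed how unevenly the genes differed between the groups. The Psmb9 level was 0.167, 0.141 and 0.152 of the Psmb8 level in EZH2 WT and 0.414, 0.446, 0.515 and 0.476 in EZH2 LOF, per kilobase of exon and in the order of replicates. The spread of this ratio within a group was narrow and the groups were apart. The ratio of Psmb9 to Tap1, the pair that starts from 1 short interval, was 0.295, 0.269 and 0.269 in EZH2 WT and 0.472, 0.454, 0.654 and 0.617 in EZH2 LOF. Tap1 to Tap2 was 0.507, 0.824 and 0.927 in EZH2 WT and 1.64, 1.199, 1.83 and 1.44 in EZH2 LOF. For each of these pairs the groups did not overlap, and no test was made on the ratios. Psmb10 to Psmb8 ran the other way, from 1.38 to 2.31 in EZH2 WT and from 0.610 to 1.31 in EZH2 LOF.

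The ratio of Psmb8 to Psmb5 asks how the inducible subunit stood against the one it replaces. Per kilobase of exon it was 1.29, 0.813 and 1.27 in EZH2 WT and 5.78, 1.21, 3.01 and 3.74 in EZH2 LOF. By these lengths, 3381 bases for Psmb8 and 899 for Psmb5, Psmb8 exceeded Psmb5 in each EZH2 LOF tumor and in 2 of the 3 EZH2 WT tumors. The ratio in replicate 14 of EZH2 LOF lay inside the EZH2 WT range. The mean log2 ratio was 0.14 ± 0.38 (SD, n = 3) and 1.57 ± 0.95 (SD, n = 4), a difference of 1.44. An alternative chosen after seeing the data counted over the 50-base words that no other gene shares. The ratio was then 0.359 to 0.570 in EZH2 WT and 0.534 to 2.55 in EZH2 LOF. Whether Psmb8 exceeded Psmb5 in a given tumor thus depended on the lengths used, among them how the shared part of Psmb5 was treated. Both lengths take in all annotated transcripts of each gene. The difference between the groups on the log2 scale is the same under both lengths.

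Psmb5 and the induced genes also differed in which tumors were high. From high to low, the EZH2 LOF replicates stood in the order 13, 16, 15, 14 for Psmb8 and 14, 15, 16, 13 for Psmb5, the exact reverse. All 5 induced genes were lowest in replicate 14, the lowest EZH2 LOF tumor for 29.0% of all listed genes and 32.8% of those called higher, and 4 of the 5 were highest in replicate 13, the highest for 27.6% and 36.9%. The Poisson intervals of Psmb5 in the 4 EZH2 LOF tumors overlap one another, so its own order there is not resolved at this depth. Among EZH2 WT tumors, Psmb5 and 4 of the 5 induced genes were highest in replicate 3, which was the highest for 35.3% of all listed genes and for 59.3% of those called higher. All 5 induced genes were lowest in replicate 2 (34.0% of all listed genes and 46.6% of those called higher) and Psmb5 in replicate 1. No test of this relation across tumors was made.

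**Figure D2:**
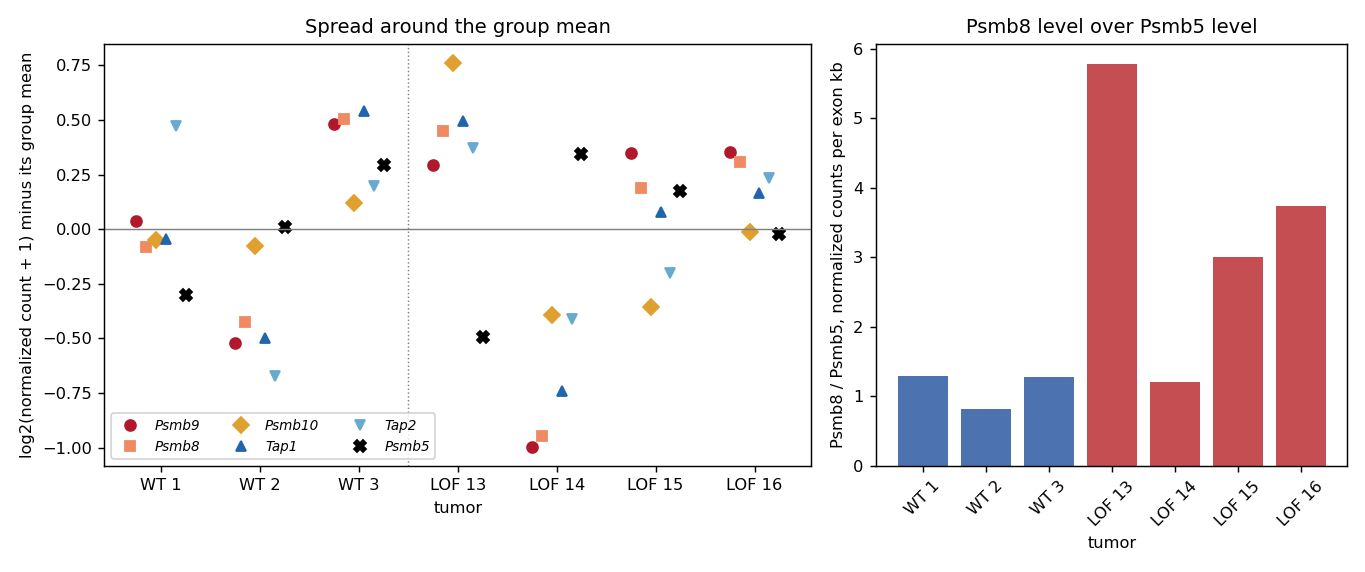
Left, deviation of log2(normalized count + 1) from the mean of its group for the 6 genes in the 3 EZH2 WT and 4 EZH2 LOF tumors (0 is the group mean). Right, the level of Psmb8 over that of Psmb5 per kilobase of exon in each tumor, EZH2 WT in blue and EZH2 LOF in red, with bars starting at 0. In EZH2 LOF replicate 14 all 5 induced genes are below their group mean and Psmb5 is above its own, and the Psmb8 to Psmb5 ratio of that tumor, 1.21, is inside the EZH2 WT range.

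Listed genes of the constitutive core other than Psmb5 had log2 differences below 0, as did most of the table, whose median was -0.33. Of 11 other subunits of the 20S core, 4 are listed, of which 2 fell (29.7% of the whole table did), 0 rose and 2 did not pass, with a median log2 difference of -0.48. Psmb1, a non-catalytic beta subunit, was 1.53-fold lower in EZH2 LOF, at 446 ± 70.9 (SD, n = 4) against 684 ± 82.0 normalized counts (SD, n = 3). The alpha-ring subunit Psma2 was 1.38-fold lower (adjusted p = 0.0239 for Psmb1 and 0.0285 for Psma2, limma). For both genes each EZH2 LOF tumor lay below each EZH2 WT tumor, as for 44.6% of the table. The count of 2 became 0 or 1 without EZH2 WT replicate 2 or without any 1 of the 4 EZH2 LOF tumors. Psmb6 and Psmb7, the subunits that Psmb9 and Psmb10 replace, are not in the table and were not analysed here.

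Of 23 genes of the 19S regulatory particle, which recognises and unfolds ubiquitinated proteins, 5 are listed. Of these 3 fell (29.7% of the whole table did), 0 rose and 2 did not pass. Psmd8, a lid subunit, was 1.36-fold lower and the ATPase subunits Psmc6 and Psmc1 were 1.40-fold and 1.46-fold lower, with adjusted p of 0.0325, 0.0347 and 0.0437 by limma. This count became 0 without EZH2 WT replicate 2 or 3 or EZH2 LOF replicate 13, 14 or 16, and 1 without EZH2 LOF replicate 15. For Psmc1, 14.1% of the 50-base words also occur elsewhere. Psme2, a subunit of the interferon-inducible activator PA28, was the only listed gene of 10 activators and assembly factors, at 38.5 ± 14.6 normalized counts in EZH2 WT (SD, n = 3) and 64.9 ± 10.96 in EZH2 LOF (SD, n = 4). It had an adjusted p of 0.0871 by limma and 28.3% of its 50-base words also occur elsewhere. It passed without EZH2 WT replicate 1.

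Listed genes of the MHC class I pathway beyond the transporters differed in direction. Of 11 genes of this list, which holds the class I transactivator, heavy and light chains and loading factors, 7 are listed. Of these 3 rose (31.2% of the whole table did), 1 fell (29.7%) and 3 did not pass, with a median log2 difference of 0.98. Nlrc5, that transactivator, was at 108, 60.3 and 168 normalized counts in EZH2 WT and 1966, 651, 1298 and 1832 in EZH2 LOF, a 12.8-fold difference of the means (adjusted p = 0.00156, limma). The class I heavy chain gene H2-K1 was 6.34-fold higher (adjusted p = 0.00244) and the nonclassical H2-T23 3.36-fold higher (adjusted p = 0.0317, limma). Of the 50-base words of these H2 genes, 9.63% and 13.6% also occur in other genes, those of their own family among them, so reads may be split among them. For Nlrc5 and H2-K1 the groups did not overlap, which held, with EZH2 LOF higher, for 41.9% of the table. For H2-T23, EZH2 LOF replicate 14, at 51.4, lay below EZH2 WT replicate 1, at 54.0. H2-T23 lost its call without EZH2 WT replicate 2 or 3 or EZH2 LOF replicate 13, 15 or 16, with adjusted p of 0.0575 to 0.120. With no variance trend it had 0.0533 by limma.

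The light chain B2m was at 1746 ± 626 (SD, n = 3) and 3541 ± 1308 (SD, n = 4) normalized counts with an adjusted p of 0.0844 by limma, and Tapbp, the tapasin that bridges the transporter and class I molecules, had 0.0506. The chaperone Canx was 1.41-fold lower in EZH2 LOF (adjusted p = 0.0491, limma), a call that was lost in 6 of the 7 fits that left out 1 tumor, all except that without EZH2 WT replicate 3, with adjusted p up to 0.112. The count of genes that rose became 5 without EZH2 WT replicate 1 or EZH2 LOF replicate 14.

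Of 14 genes of interferon-gamma signalling, the pathway known to induce the immunoproteasome, 8 are listed. Of these 7 rose (31.2% of the whole table did) and 1 fell (29.7%), with a median log2 difference of 1.13. The gene that fell was Ifngr2, a chain of the interferon-gamma receptor, 1.47-fold lower in EZH2 LOF (adjusted p = 0.0258, limma). Its groups did not overlap, as for 44.6% of the table with EZH2 LOF lower. Irf1, a transcription factor of this response, was 3.46-fold higher, Irf8 1.88-fold, Stat2 1.87-fold and Ciita, the class II transactivator, 10.4-fold (adjusted p of 0.0110, 0.0133, 0.0243 and 0.00576, limma). For each of these 4 genes the groups did not overlap, which held, with EZH2 LOF higher, for 41.9% of the table. EZH2 LOF replicate 14 was the lowest tumor of its group for each of the 4. The 7 became 3 without EZH2 WT replicate 2 or without EZH2 LOF replicate 13, 15 or 16, and the gene that fell was no longer called in these fits. All 6 listed genes of 9 of the MHC class II list rose, against 31.2% of the whole table, with a median log2 difference of 2.84. Without EZH2 WT replicate 2, 2 of these genes rose.

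**Figure D3:**
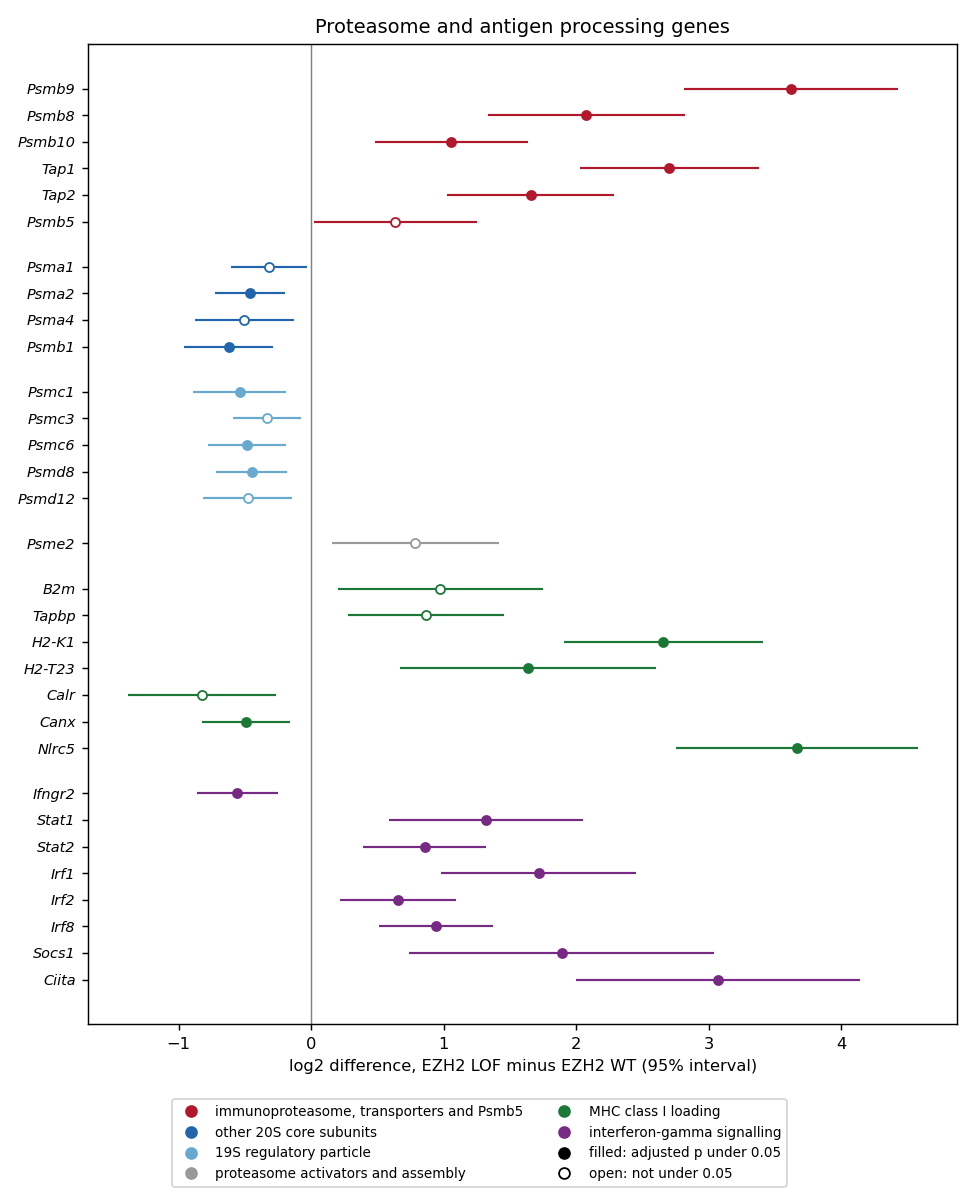
Log2 difference between EZH2 LOF (n = 4) and EZH2 WT (n = 3) with its 95% interval from limma (horizontal axis) for the 6 genes and for listed genes of 5 related lists. Filled points have an adjusted p under 0.05. The 5 induced genes lie between 1.06 and 3.62. The listed core and 19S subunits other than Psmb5 lie below 0, as does the median of all listed genes (-0.33).

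Some listed cell type markers differed between the groups as well, and their part in the differences was not tested. Among 18 microglia and macrophage markers, Itgam, an integrin of these cells, was at 389, 124 and 179.6 normalized counts in EZH2 WT and at 55.0, 131, 76.5 and 77.5 in EZH2 LOF, and it fell (adjusted p = 0.0430, limma), with EZH2 LOF replicate 14 above EZH2 WT replicate 2. Its call was lost without EZH2 WT replicate 1 or 3 or EZH2 LOF replicate 13, 15 or 16, with adjusted p up to 0.117. Itgam also lost it with no variance trend (0.0732) and without EZH2 LOF replicates 13 and 14 together (0.127, limma). Of the glioma markers, Olig2 fell 1.65-fold (adjusted p = 0.0148, limma). Its groups did not overlap, with EZH2 LOF lower, as for 44.6% of the table. Pdgfra was at 19149 ± 5787 normalized counts in EZH2 WT (SD, n = 3) and 11124 ± 991 in EZH2 LOF (SD, n = 4), with an adjusted p of 0.0636 by limma. Olig2 had an adjusted p of 0.125 without EZH2 LOF replicates 13 and 14 together, the only alternative in which it lost its call. The 6 listed class II genes, which antigen-presenting cells carry, summed to 221 to 896 in EZH2 WT and 1218 to 7356 in EZH2 LOF. Of 7 dendritic cell markers 1 is listed, Zbtb46, at 36.7 to 67.1 and 74.3 to 88.3. Zbtb46 did not pass (adjusted p = 0.0622, limma), and its groups did not overlap, as for 41.9% of the table with EZH2 LOF higher. Of 8 endothelial markers 1 is listed, Tek, at 30.01 to 75.7 and 17.1 to 22.9. Tek fell (adjusted p = 0.0437, limma), with no overlap of the groups, as for 44.6% of the table with EZH2 LOF lower. The call of Tek was lost in every fit that left out 1 tumor except that without EZH2 WT replicate 3, with adjusted p up to 0.179. Of 18 lymphocyte and NK cell markers 0 are listed, so their levels were not analysed here. In bulk tumor, more cells of a type and more RNA per cell cannot be told apart.

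Most listed genes around the chromosome 17 cluster were higher in EZH2 LOF too, among them a class I gene and class II genes on either side. Within 500 kb of the 4 clustered genes, GENCODE M21 has 57 protein-coding genes, and 13 listed genes lie there besides the 4. Of these 13, 9 rose (31.2% of the whole table did), 0 fell and 4 did not pass. By position, Rgl2 (1.39-fold, adjusted p = 0.0447), H2-K1, the cartilage collagen gene Col11a2 (6.07-fold, adjusted p = 0.00325), and the class II genes H2-DMa (3.37-fold, adjusted p = 0.0149), H2-DMb1 (4.03-fold, adjusted p = 0.0215) and H2-Ab1 (7.39-fold, adjusted p = 0.00668, limma) were the first 6 that passed. Col11a2 was at 255 ± 201 normalized counts in EZH2 WT (SD, n = 3) and 1547 ± 231 in EZH2 LOF (SD, n = 4). Rgl2 lost its call in 6 of the 7 fits that left out 1 tumor, all except that without EZH2 WT replicate 3, with adjusted p up to 0.154. H2-DMb1 lost it in 5, all except those without EZH2 WT replicate 1 or EZH2 LOF replicate 14, with adjusted p up to 0.0827, and H2-DMa without EZH2 WT replicate 2, with 0.0598.

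**Figure D4:**
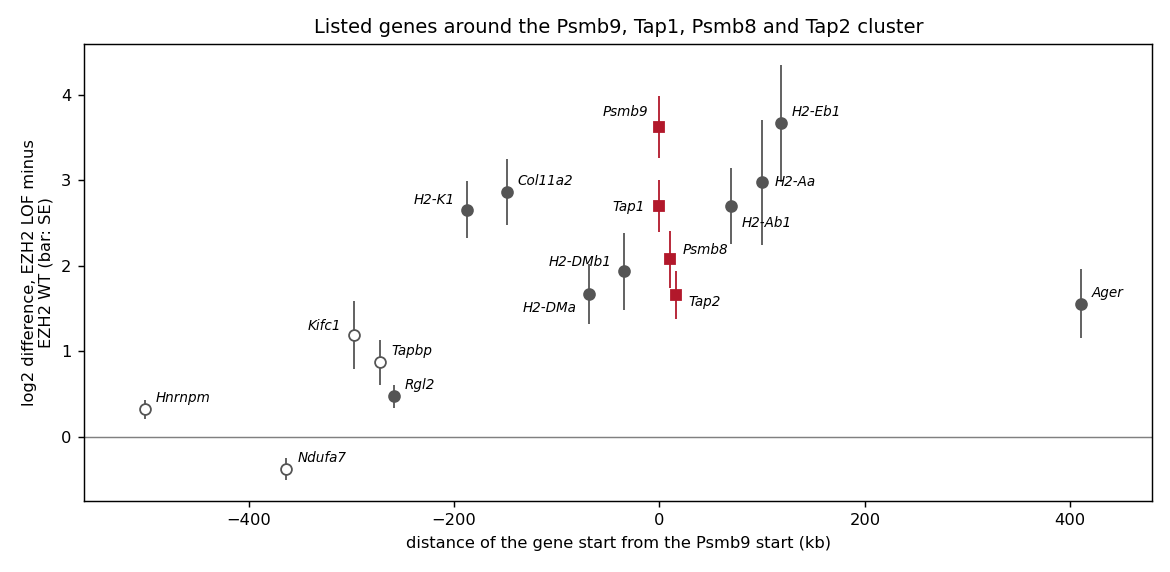
Log2 difference between EZH2 LOF (n = 4) and EZH2 WT (n = 3) with its SE (vertical axis) against the distance in kb between a gene's start and the Psmb9 start, for the listed genes near the cluster. Red squares are Psmb9, Tap1, Psmb8 and Tap2, circles are other genes, and filled symbols have an adjusted p under 0.05 by limma. The genes from H2-K1 to H2-Eb1 lie between 1.66 and 3.67.

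The listed genes whose pattern over the 7 tumors was most like the mean standardised profile of the 5 induced genes were Nlrc5, Tet2, Cdk5rap2, H2-Q6 and Slc12a7, with Pearson likeness of 0.995, 0.993, 0.993, 0.993 and 0.992. This likeness includes the gap between the groups, and 185 listed genes reached 0.95. The likeness of Psmb5 was 0.55. Once group means were taken away, leaving the spread among tumors of a group, the nearest genes included Irgm1, Tgm2, Igtp and Nlrc5, at 0.995, 0.992, 0.982 and 0.980, and 21 listed genes reached 0.95. Irgm1 and Igtp are interferon-inducible GTPases. The induced genes themselves, which enter the profile, ranged from 0.75 for Psmb10 to 0.98 for Tap1, and Psmb5 was at -0.53. The points share libraries and depth, and no test was made.

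These genes differed in size of change as well. H2-Q6 was 16.3-fold and Slc12a7 4.89-fold higher in EZH2 LOF, Cdk5rap2 and Tet2 1.58-fold and 1.51-fold, with adjusted p of 0.00156, 0.00338, 0.0119 and 0.0161 by limma. Igtp was 7.21-fold and Irgm1 2.57-fold higher (adjusted p of 0.0116 and 0.0328, limma), and Tgm2 did not pass, with 0.115. Tgm2 passed without EZH2 LOF replicate 14, with 0.0356. Tet2 lost its call without EZH2 WT replicate 2 or EZH2 LOF replicate 16, with adjusted p of 0.0647 and 0.0534. Irgm1 lost its call in 5 of the 7 fits that left out 1 tumor. These left out EZH2 WT replicate 1 or 2 or EZH2 LOF replicate 13, 15 or 16, with adjusted p up to 0.128. With no variance trend Irgm1 had 0.0647 by limma. Without EZH2 LOF replicates 13 and 14 together, Irgm1, Tet2 and Cdk5rap2 lost their calls, with 0.0600, 0.0700 and 0.0660 by limma. Other genes hold 32.0% of the 50-base words of H2-Q6 and 11.8% of those of Igtp.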

How the data were processed

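RNA of 7 pontine gliomas (3 EZH2 WT, 4 EZH2 LOF) was compared. By the study's methods, total RNA was depleted of rRNA and sequenced from stranded libraries as single-end reads of 50 bases, and the authors used FastQC, Trim Galore, STAR (mm10), HTSeq and DESeq2. No source used here gives their versions.

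The authors deposited signal values that are gene counts divided by a size factor per library, for genes called at an FDR under 0.05 only (3553 lines, 3533 genes). The authors' p-values, raw and adjusted, were used only to read that 13391 genes had been tested. Their fold changes were not used. All values were whole multiples of 1 read (100% of values in each library, tolerance 0.001 reads), which gave the reads for edgeR and DESeq2. Of these 7 libraries, 5 pass a coded check of the file and the other two do not, so their reads depend on the step alone. No replicate pair agreed within counting error (lowest chi-square per degree of freedom 3.04).

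limma (version 3.58.1, R 4.3.3) with a variance trend was fitted to log2(normalized count + 1) over the whole table, two-sided. The trend and the shared variance were thus estimated from listed genes only, which had been selected on these same libraries. Intervals may therefore be too narrow and p-values too small, which the adjustment over all tested genes does not correct. Genes outside the table entered the Benjamini-Hochberg adjustment with the highest possible p. Folds are ratios of mean normalized counts. edgeR (4.0.16) called 1133 genes higher and 1125 lower, and DESeq2 (1.42.0) 1370 and 1401. Other pseudocounts, filters, scaling and left-out tumors were also tried. Fits were tested on simulated data. Named genes were the 6 genes, up to 4 passing genes of each list with the smallest p, the 5 nearest in profile under each measure, and the first 6 passing neighbours. Others are named because they belong to the lists, and some genes that the rule or the lists hold are not reported here. Members and lists were chosen with earlier results of these data known.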

Additional observations from a re-analysis of the deposited data

Results flagged for a closer look

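Psmb9 in the EZH2 LOF group held 1 tumor far from the others. Replicate 14 was at 146 normalized counts against 357, 371 and 372 in replicates 13, 15 and 16, and its gap to the nearest tumor was 0.935 of the range of the group, above Dixon's 95% critical value for 4 samples. Of 35 results looked at in this way 1 was so marked, and chance marks about 1 in 20 groups. Without replicate 14 the log2 difference of Psmb9 was 3.95 (adjusted p = 0.000771, limma).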

How the results depend on the processing

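No direction was reversed under any alternative run. Leaving out 1 tumor moved the log2 difference of Psmb10 between 0.80 and 1.19, the genes called higher between 458 and 1048 (main 1102) and those called lower between 357 and 876 (main 1048). Over the same fits, the calls of the lists ranged from 0 to 2 for core subunits, 0 to 4 for the 19S particle, 0 to 1 for activators, 2 to 5 higher and 0 to 2 lower for class I loading, 3 to 6 higher and 0 to 1 lower for interferon-gamma signalling and 2 to 6 for class II. Without EZH2 LOF 13 and 14 together, 182 genes were higher and 89 lower, Psmb10 was at 0.87 and Tap2 at 1.67 without a call, 0 core, 0 regulatory, 0 class I loading and 0 interferon genes were lower, and 3 interferon and 2 class II genes higher; fewer samples enter this fit. Adjusted over the listed genes only, which counts fewer tests, 1694 genes were higher and 1790 lower, Psmb5 passed at 0.64, the catalytic counterparts and activators had 1 call each, 4 core and 5 regulatory subunits were lower, and class I loading had 5 higher and 2 lower. With no variance trend 0 regulatory and 0 class I loading genes were lower, and DESeq2 gave 5 and 2, with 5 class I loading genes higher. edgeR gave 2 lower class I loading genes, and a mean of at least 20 gave 0. Causes of these shifts were otherwise not tested. Psmb8, Psmb9 and Tap1 kept their calls under every alternative. For the 28 other named genes, 362 values kept their side of the threshold, 84 lost and 2 gained a call. TMM scaling moved the median log2 difference by 0.017.

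No paired analysis was possible because EZH2 WT and EZH2 LOF share no replicate number, and the gain-of-function table holds none of the 6 genes. Precision is limited by depth for Psmb5, with 8 reads in EZH2 LOF replicate 13.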
